A study of Rattus norvegicus with 16 samples.

Results

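The MHC class II antigen presentation genes followed here were RT1-Da, RT1-Db1, RT1-Ba, RT1-Bb, RT1-DMa, RT1-DMb, Cd74 and Ciita. They were taken by symbol from the 23552 genes of the expression table, and the choice was made with earlier results of these data known. All 8 were found once each, and all 8 passed the filter on low values that left 14337 genes for testing (at least 4 libraries with an FPKM, fragments scaled to gene length and library depth, of 1 or more). The RNA came from the knee cartilage of rats, with 4 libraries for each condition and 16 altogether. One condition was healthy cartilage and another osteoarthritic cartilage without a labelled treatment. In the other 2 the osteoarthritic cartilage had received cells and a drug, in 1 case with hyaluronic acid (HA) and in the other with a coacervate, a polymer-rich liquid droplet phase. Every label gives an age of 10 weeks. Healthy libraries carry the name Sham and osteoarthritic ones the name PBS, and neither word is explained. The labels leave out which drug, which cells and which polymers were used, the rat strain and how the disease was brought about. They do not state that replicates were separate animals either, so a p-value measures only the spread between these libraries, which may be technical.

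MHC class II molecules are pairs of an alpha and a beta chain on the cell surface that show peptides from taken-up protein to CD4+ T cells. In the rat the chains of the RT1-D molecule are encoded by RT1-Da and RT1-Db1, and those of the RT1-B molecule by RT1-Ba and RT1-Bb. New chains bind the invariant chain, Cd74, which fills the peptide groove on the way to the endosome, and the DM molecule (RT1-DMa and RT1-DMb) then exchanges its last fragment for a peptide. Ciita is the transactivator that binds the factors assembled on the X and Y boxes of these promoters, and interferon-gamma is its best known inducer outside the professional antigen presenting cells. Dendritic cells, B cells and macrophages carry most class II protein, and cartilage is largely a tissue of chondrocytes with few such cells.

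On the submitters' build, rn6, the 6 RT1 members lie on chromosome 20 between base 3935529, the start of RT1-DMa, and base 4132616, the end of RT1-Da. RT1-DMa runs from 3935529 to 3938915, RT1-DMb from 3945601 to 3952846, RT1-Bb from 4039413 to 4049711 and RT1-Db1 from 4087618 to 4097190, all 4 on the forward strand. RT1-Ba runs from 4066132 to 4070721 and RT1-Da from 4127644 to 4132616, on the reverse strand. Cd74 is on chromosome 18 from 56071478 to 56080849 (forward) and Ciita on chromosome 10 from 5213350 to 5260608 (reverse). RT1 genes form a family with near copies and are polymorphic between rat strains, and the labels give no strain. How reads of near copies or of alleles unlike the reference were counted was not tested, which limits what a low level of an RT1 chain means.

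Promoters are shown because the class II genes are known for a shared promoter layout. RefSeq promoters (build GRCr8, 250 bases before to 50 after the start of transcription) were matched by symbol for 6 of the 8 members, all except RT1-DMb and Ciita. The stretches of 90 bases printed here are read along the gene, from 5′ to 3′, and lie at chr20:4515304-4515393 (forward strand) for RT1-Da, chr20:4560215-4560304 (reverse strand) for RT1-Db1, chr20:4576952-4577041 (forward strand) for RT1-Ba, chr20:4604152-4604241 (reverse strand) for RT1-Bb, chr20:4712372-4712461 (reverse strand) for RT1-DMa and chr18:56527116-56527205 (forward strand) for Cd74. Capitals mark CTGATTGG or TGATTGG (a Y box, the inverted CCAAT element), GCAAC (part of an X box) and TGACGTCA. The last holds 2 overlapping matches to TGACG, the core of the X2 element, 1 on each strand.
RT1-Da: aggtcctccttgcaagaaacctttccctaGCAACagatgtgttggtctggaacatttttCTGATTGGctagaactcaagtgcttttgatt
RT1-Db1: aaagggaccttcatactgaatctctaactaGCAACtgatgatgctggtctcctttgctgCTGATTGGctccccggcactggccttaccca
RT1-Ba: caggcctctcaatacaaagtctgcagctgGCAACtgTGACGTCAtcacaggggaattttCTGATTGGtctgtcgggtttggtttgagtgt
RT1-Bb: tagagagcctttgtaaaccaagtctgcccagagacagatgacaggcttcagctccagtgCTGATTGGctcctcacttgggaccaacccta
RT1-DMa: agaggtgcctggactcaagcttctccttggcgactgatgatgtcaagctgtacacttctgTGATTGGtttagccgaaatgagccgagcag
Cd74: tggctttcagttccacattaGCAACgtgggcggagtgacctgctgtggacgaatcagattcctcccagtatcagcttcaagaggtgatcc

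The Y box core, CCAAT on either strand, was in 6 of the 6 promoters and in 37.5% of the 33469 promoters of the same length in the table. Its longer form CTGATTGG was in 4 of 6, those of RT1-Da, RT1-Db1, RT1-Ba and RT1-Bb, and in 3.5% of all promoters. RT1-DMa held the form that is 1 base shorter, TGATTGG, which contains the core, so 5 of 6 held it against 7.06% of all. The CCAAT of Cd74 stood farther out, 189 bases before the start. GCAAC was found in RT1-Da, RT1-Db1, RT1-Ba and Cd74 and in 35.1% of all promoters. Its form with 2 more bases, TAGCAAC, was in RT1-Da, RT1-Db1 and Cd74, 3 of 6, and in 3.58% of all.

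The 2 elements stood at a nearly fixed distance. In RT1-Da, RT1-Db1 and RT1-Ba, 26, 25 and 26 bases separated the end of GCAAC from the start of TGATTGG, and GCAAC at most 60 bases before TGATTGG on the gene's strand was found in 70 of the 33469 promoters (0.209%). The shorter Y box, both X box forms and this pair were chosen after the promoters had been read, so their shares only describe them. TGACG, on either strand, was in RT1-Ba alone (1 of 6, against 21.2% of all promoters). AANNGAAA, an interferon regulatory factor core, was in Cd74 alone (1 of 6, against 26.4%), and GAGGAAG, a PU.1-type core, in none of the 6 (12.4% of all). A match gives letters, not a bound site, and these libraries measured no binding.

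**Figure D1:**
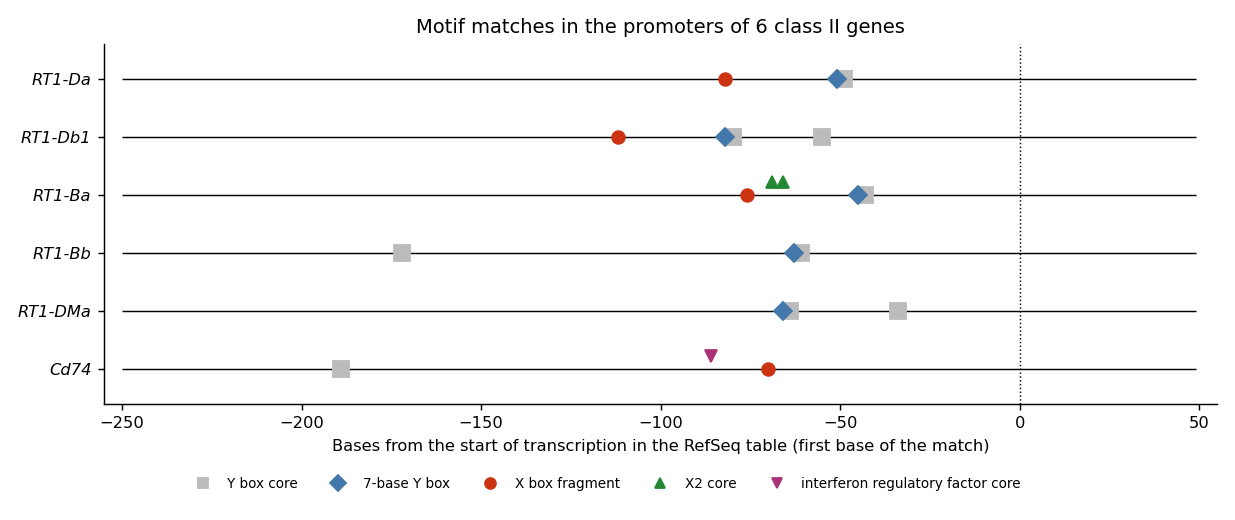
Motif matches in the RefSeq promoters of 6 class II genes, by the distance in bases of the first base of a match from the start of transcription (0, dotted line), matches on both strands included. The 7-base Y box (diamonds) lies between 82 and 45 bases before the start in 5 genes and is not among the matches of Cd74, and an X box fragment (circles) precedes it in 3.

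All 8 genes were read in each library, with counts from 526 (RT1-DMa, healthy replicate 3) to 30476 (Cd74, coacervate replicate 2) among totals of 36988722 to 50725189 per library. Chondrocyte markers were present (all 10 passed the filter, with Col2a1 at 169 to 593 FPKM), and so were markers of blood-forming and immune cells. Haemoglobin genes took 10.2% to 22.2% of the counts, and osteoarthritic replicates 2 and 3 stood apart with 22.2% and 21.7%. TMM, a scaling by a trimmed mean over genes, lifts the normalised values of these 2 libraries (scale factors 0.838 and 0.877), so the members' estimates that rest on the osteoarthritic group are also given without both. In bulk RNA, fewer cells of a type and less RNA per cell cannot be told apart.

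Per length, on the FPKM scale, Cd74 was the most abundant of the 8. Its mean was 303 ± 41.7 FPKM (SD, n = 16), ahead of RT1-Da at 68.3 ± 10.9, RT1-Ba at 62.9 ± 23.3, RT1-Db1 at 21.1 ± 7.56, RT1-DMb at 20.3 ± 3.48, RT1-Bb at 19.4 ± 5.83, RT1-DMa at 9.16 ± 1.36 and Ciita at 2.75 ± 0.607. RT1-Da and RT1-Ba did not differ beyond their spread, nor did RT1-Db1, RT1-DMb and RT1-Bb. The steps from Cd74 to RT1-Da, from RT1-Bb to RT1-DMa and from RT1-DMa to Ciita exceeded 1 SD, and the lowest Cd74 value (243) was above the highest RT1-Ba value (91.6) and RT1-Da value (87.6). In all 4 groups Cd74 was first, RT1-DMa the seventh and Ciita the eighth.

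RT1-Da, the alpha chain of the RT1-D molecule, was among the even genes of the set. The deposited FPKM of RT1-Da in replicates 1 to 4 was 79.1, 74.1, 60.6 and 58.8 in healthy cartilage and 69.6, 67.25, 87.6 and 69.02 in osteoarthritic cartilage. It was 55.9, 85.65, 47.5 and 70.3 after HA and 66.4, 78.3, 63.03 and 59.2 after the coacervate. The 4 groups overlapped, and the highest of the 16 values was 1.84 times the lowest.

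RT1-Db1, the beta chain that pairs with RT1-Da, varied more. In FPKM, RT1-Db1 in replicates 1 to 4 stood at 12.85, 22.25, 30.7 and 10.8 in healthy cartilage and 9.54, 28.75, 33.9 and 20.01 in osteoarthritic cartilage. After HA it stood at 22.3, 24.2, 25.8 and 18.02, and after the coacervate at 8.94, 27.4, 20.99 and 20.95. Values under 13 occurred in 3 groups (healthy replicates 1 and 4, osteoarthritic replicate 1 and coacervate replicate 1), the groups overlapped, and the highest value was 3.80 times the lowest.

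RT1-Ba, the alpha chain of the RT1-B molecule, had the widest range of the 8. Replicates 1 to 4 gave for RT1-Ba FPKM values of 24.2, 78.7, 90.6 and 22.6 in healthy cartilage and 39.96, 55.6, 91.6 and 80.4 in osteoarthritic cartilage. Treated libraries had 47.25, 90.4, 74.25 and 68.8 after HA and 36.5, 76.1, 76.1 and 53.9 after the coacervate. The highest value was 4.05 times the lowest. The 2 lowest libraries were healthy replicates 4 and 1, and the library numbered 1 was the lowest of its group in the other 3 groups. Healthy replicates 2 and 3 were among the higher libraries, so the healthy group alone spanned nearly the whole range.

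RT1-Bb, its beta chain partner, followed it. FPKM values of RT1-Bb in replicates 1 to 4 were 8.42, 25.4, 22.4 and 8.73 in healthy cartilage and 19.7, 15.9, 28.2 and 23.1 in osteoarthritic cartilage. They were 15.5, 25.2, 19.85 and 22.2 after HA and 13.9, 18.8, 25.3 and 17.2 after the coacervate. Healthy replicates 1 and 4 were again the lowest of the 16, and the highest value was 3.35 times the lowest. Of the 5 libraries lowest in RT1-Ba, 4 were also among the 5 lowest in RT1-Bb, and 4 among the 5 lowest in RT1-Db1.

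RT1-DMa, the alpha chain of the peptide exchanger DM, moved within a narrow band. For RT1-DMa, replicates 1 to 4 had FPKM values of 8.27, 9.11, 7.15 and 9.72 in healthy cartilage and 10.2, 10.2, 9.70 and 9.80 in osteoarthritic cartilage. They had 10.98, 11.3, 10.4 and 8.38 after HA and 6.91, 8.95, 7.22 and 8.32 after the coacervate. The osteoarthritic libraries lay between 9.70 and 10.2, above all 4 coacervate libraries, and the highest of the 16 values was 1.64 times the lowest.

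RT1-DMb, the DM beta chain, had the same outline. Measured in FPKM, RT1-DMb in replicates 1 to 4 was 17.4, 20.15, 17.03 and 16.4 in healthy cartilage and 21.1, 23.8, 18.9 and 25.1 in osteoarthritic cartilage. It was 23.7, 27.8, 20.3 and 21.04 after HA and 16.9, 20.8, 15.1 and 18.8 after the coacervate. All 4 HA libraries were above the highest healthy one (20.15), while osteoarthritic replicate 3 lay below it on this scale. The highest value was 1.84 times the lowest.

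Cd74, the invariant chain, had the smallest ratio of highest to lowest value, 1.61. As FPKM, Cd74 in replicates 1 to 4 was 320.5, 283, 276 and 292 in healthy cartilage and 299, 308, 376 and 353 in osteoarthritic cartilage. The values were 282, 318, 243 and 267 after HA and 248, 391, 303 and 284 after the coacervate. The highest value was in coacervate replicate 2 and the lowest in HA replicate 3, and all groups overlapped.

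Ciita, the transactivator, was low but read with 580 to 1127 counts per library. FPKM levels of Ciita in replicates 1 to 4 were 3.05, 3.25, 3.25 and 2.45 in healthy cartilage and 3.52, 2.14, 1.99 and 3.07 in osteoarthritic cartilage. They were 3.02, 1.9, 2.16 and 2.02 after HA and 2.17, 3.64, 3.17 and 3.22 after the coacervate. Coacervate replicate 1 was low and HA replicate 1 high beside the rest of their groups, and osteoarthritic replicates 2 and 3 were below replicates 1 and 4. The groups overlapped. The highest value was 1.92 times the lowest.

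**Figure D2:**
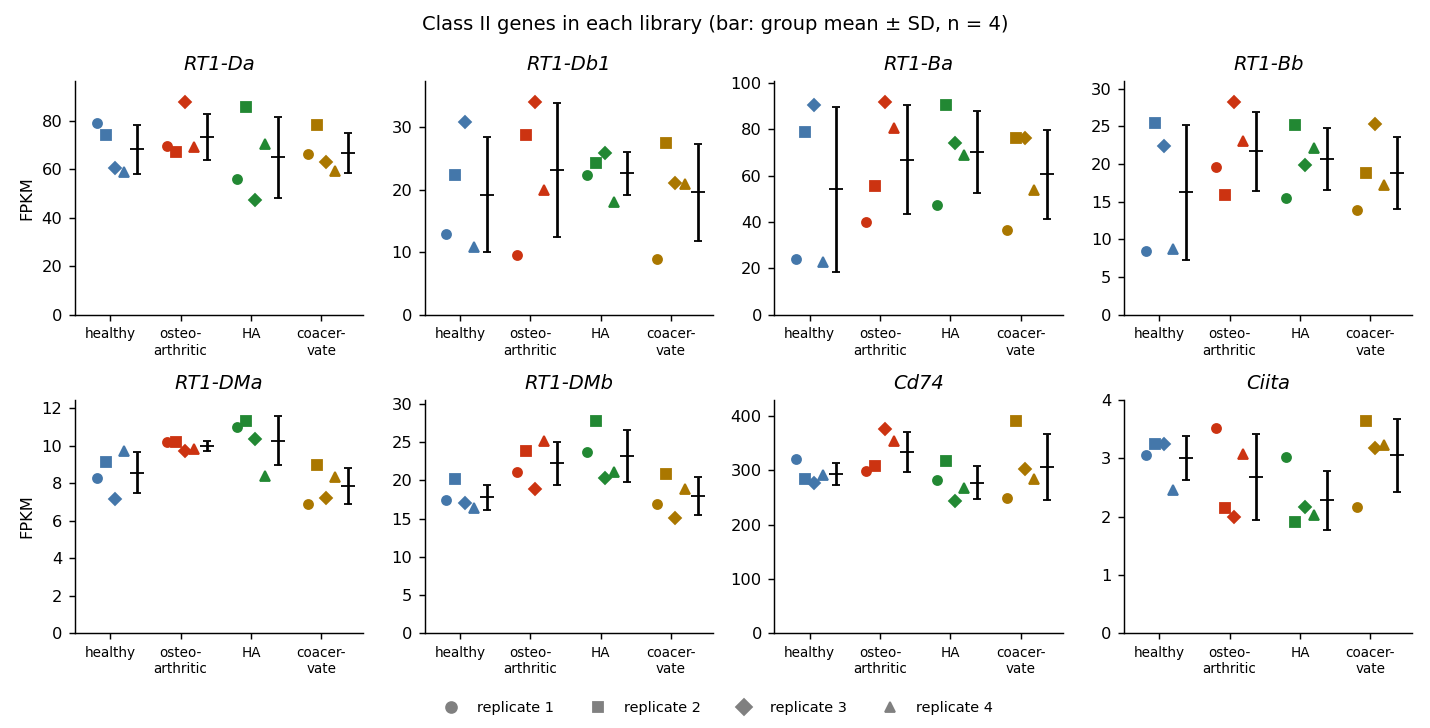
Deposited FPKM (linear axis from 0) of each class II gene in the 16 libraries by group, 1 symbol shape per replicate number, with the group mean ± SD (n = 4) to the right of the points. RT1-Ba, RT1-Bb and RT1-Db1 range 3.35 to 4.05 times from lowest to highest with healthy replicates 1 and 4 low, against 1.61 to 1.92 times for the other 5 genes.

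Those ranges were set against all genes by the spread within groups (the residual SD of log2 CPM, TMM-scaled counts, around the 4 group means). RT1-Db1 had a residual SD of 0.69, RT1-Ba of 0.68 and RT1-Bb of 0.50, against a median of 0.26 over the 14337 genes tested. Of all genes 4.35%, 4.64% and 12.6% were more variable than these 3. Among genes within 0.5 log2 units of their own mean level the shares were 0.969%, 1.34% and 4.40%. The other 5 members were ordinary, with residual SDs of 0.18 (RT1-DMb), 0.19 (RT1-DMa), 0.21 (Cd74), 0.25 (Ciita) and 0.27 (RT1-Da).

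**Figure D3:**
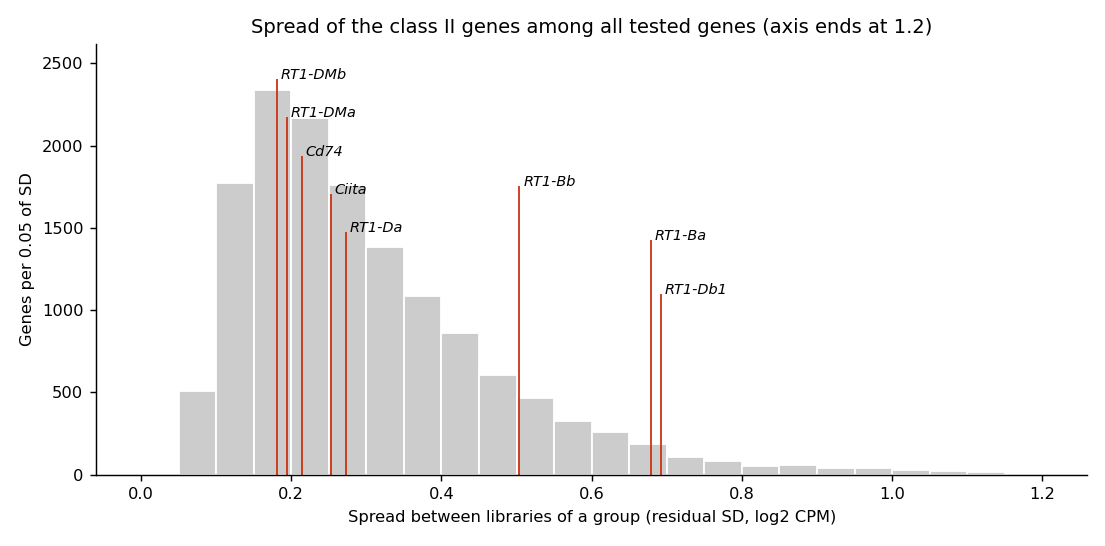
Histogram of the within-group residual SD of log2 CPM over the genes tested (bins of 0.05, bars up to 1.2), with the 8 class II genes as red lines. RT1-Bb, RT1-Ba and RT1-Db1 lie in the right tail at 0.50, 0.68 and 0.69, and the other 5 between 0.18 and 0.27, near the bulk of the genes.

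Across the 16 libraries RT1-Ba, RT1-Bb and RT1-Db1 formed a trio. RT1-Ba and RT1-Bb, the 2 chains of the RT1-B molecule, had the highest coefficient (Pearson r of log2 CPM 0.93, and 0.93 after the group means were removed). RT1-Db1 had an r of 0.81 with RT1-Ba and 0.64 with RT1-Bb, against 0.27 with its own partner RT1-Da. RT1-DMa and RT1-DMb moved together (r = 0.81, and 0.60 within groups), and RT1-Da moved with Cd74 (r = 0.79, and 0.72 within groups) but little with RT1-Ba (r = 0.24). These groupings were not separate from each other: within groups Cd74 had an r of 0.58 with RT1-DMa, 0.57 with RT1-Db1 and 0.50 with RT1-DMb, and RT1-Da one of 0.46 with RT1-DMb. Ciita had an r between -0.31 and 0.19 with each of the other 7. These coefficients describe 16 libraries that share 4 groups, library depth and scaling.

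**Figure D4:**
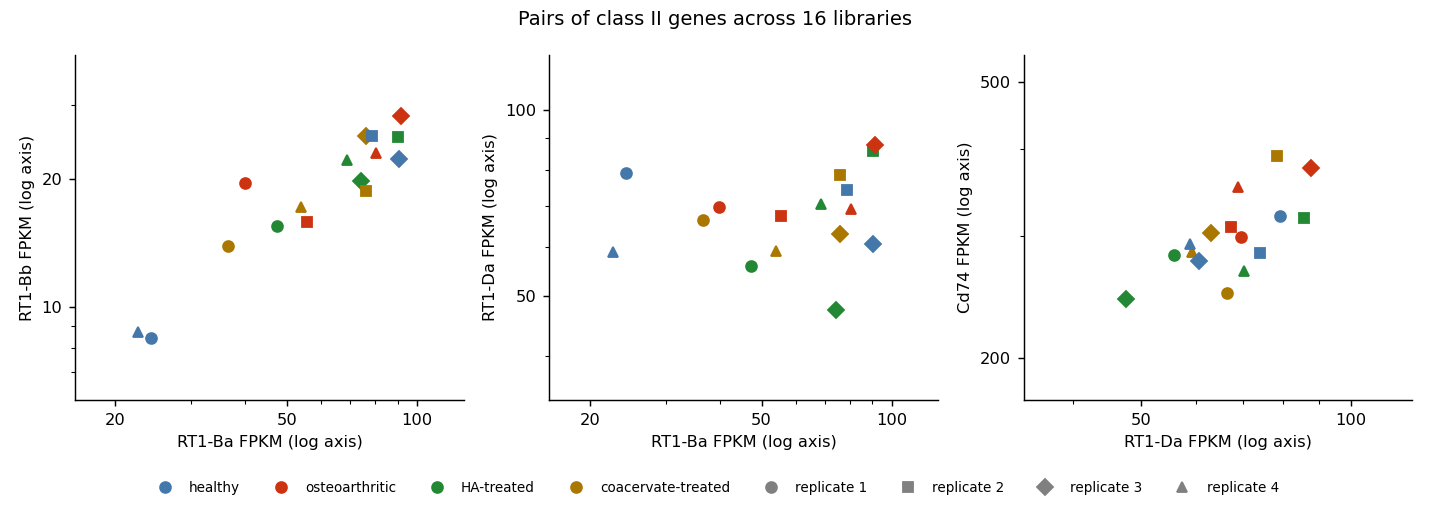
FPKM of 3 pairs of class II genes on log axes, 1 point per library, coloured by group and shaped by replicate number. Libraries higher in RT1-Ba are higher in RT1-Bb (r of log2 CPM 0.93), with healthy replicates 1 and 4 at the lower end, while RT1-Da and RT1-Ba (r = 0.24) show little relation and Cd74 and RT1-Da (r = 0.79) lie along a line over a narrower range.

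Ratios within a library, on the FPKM scale, show the same split without any scaling between libraries. RT1-Ba over RT1-Bb was 3.20 ± 0.537 (SD, n = 16), RT1-DMb over RT1-DMa 2.22 ± 0.237 and Cd74 over RT1-Da 4.48 ± 0.524, each within 2.00 times from lowest to highest library. RT1-Da over RT1-Db1 ran from 1.84 in HA replicate 3 to 7.42 in coacervate replicate 1, with 6.16 and 5.43 in healthy replicates 1 and 4 and 7.30 in osteoarthritic replicate 1. RT1-Ba over RT1-Da ran from 0.306 in healthy replicate 1 to 1.56 in HA replicate 3. Cd74 over the sum of the 4 classical chains was 2.57 and 2.89 in healthy replicates 1 and 4 and 1.41 and 1.35 in healthy replicates 2 and 3. Such ratios show unequal levels and not which gene was off.

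Marker genes of the cells that carry class II were read beside these libraries. The summed CPM of 12 macrophage markers was 1427, 1043, 1002 and 1010 in healthy replicates 1 to 4. That of 12 dendritic cell markers was 211, 224, 215 and 219. The sum of 13 B cell markers, with the precursor genes Rag1, Vpreb1 and Vpreb3 among them, was 609, 736, 644 and 387. Healthy replicate 1, low in RT1-Ba, RT1-Bb and RT1-Db1, was thus the highest of its group in macrophage markers, and healthy replicate 4, low in the same genes, the lowest in B cell markers. Osteoarthritic replicate 1, also low in RT1-Db1, had 1232 CPM of macrophage and 497 of B cell markers, the highest of its group in both. Coacervate replicate 1, low in RT1-Db1 as well, had 1105 and 536, inside the range of its group. RT1-Db2, a further RT1-D beta chain gene, stayed between 0.05 and 1.9 FPKM in all 16 libraries. What part cell make-up or the counting of reads from near copies and other alleles had in the split was not tested.

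Osteoarthritic against healthy cartilage is the comparison of disease. By edgeR's quasi-likelihood test with Benjamini-Hochberg adjustment over all 14337 genes tested, 0 of the 8 members passed at 0.05, where 0.502% of all genes tested passed. An unadjusted p under 0.05 was found for 3 of 8 (17.8% of all genes), and the groups did not overlap in CPM for 1 of 8 (6.33%). The estimate was above 0 for 7 of 8 (52.1% of all genes), with a median log2 difference of 0.41 over the members and 0.015 over all genes. Without osteoarthritic replicates 2 and 3 the estimate was above 0 for 6 of 8, and the median was 0.12. RT1-Da, RT1-Db1 and Ciita then changed sign, to -0.01, -0.40 and 0.10, while RT1-Ba was at 0.14 and RT1-Bb at 0.38. Markers of other cells had positive medians in the same comparison. Those of neutrophils had estimates above 0 for 6 of 7 (median 0.75, 0 called), and their summed CPM was 6149, 22310, 13957 and 7322 in osteoarthritic replicates 1 to 4 against 6688 to 8422 in healthy cartilage. Fibroblast markers had estimates above 0 for 7 of 8 (median 0.54, with 1 called), with sums of 20448, 8669, 9492 and 22628 against 9998 to 15081. So osteoarthritic replicates 2 and 3 were the highest of their group in neutrophil markers and the lowest in fibroblast markers. The part of these cells in the members' estimates was not tested.

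The DM pair came nearest to a call. RT1-DMb had 35.1, 38.01, 32.4 and 33.4 CPM in healthy replicates 1 to 4 and 40.4, 58.8, 44.5 and 47.8 in osteoarthritic ones, so every osteoarthritic library was above every healthy one. Its log2 fold change was 0.46 ± 0.13 (SE), 95% interval 0.19 to 0.74, with an unadjusted p of 0.00276 and an adjusted p of 0.142 by edgeR. It passed with DESeq2 (adjusted p = 0.0364) and with edgeR without osteoarthritic replicate 1 (adjusted p = 0.0387). Those settings called 418 and 1122 of the 14337 genes, in that order, against 72 in the main fit. Over 28 alternatives the adjusted p of RT1-DMb ranged from 0.0364 to 0.318, and the separation of the groups is lost in FPKM. RT1-DMa (16.8 ± 2.54 CPM, SD, n = 4, in healthy and 21.5 ± 2.97 in osteoarthritic cartilage) had a log2 fold change of 0.36 ± 0.14 (SE) and an adjusted p of 0.225 by edgeR. Without osteoarthritic replicates 2 and 3, RT1-DMb was at 0.34 (adjusted p = 0.265) and RT1-DMa at 0.18 (adjusted p = 0.607).

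Cd74 had 515, 426, 419 and 475 CPM in healthy replicates 1 to 4 and 457, 607, 707 and 537 in osteoarthritic ones. The 2 highest values were osteoarthritic replicates 2 and 3, and osteoarthritic replicate 1 lay inside the healthy range. Its log2 fold change was 0.33 ± 0.15 (SE), adjusted p = 0.269 by edgeR, and 0.11 without osteoarthritic replicates 2 and 3. The classical chains had wide intervals. RT1-Bb was at 0.58 (95% interval -0.09 to 1.25), RT1-Ba at 0.49 (95% interval -0.39 to 1.37), RT1-Db1 at 0.48 (95% interval -0.39 to 1.36) and RT1-Da at 0.26 (95% interval -0.13 to 0.64), all log2. Ciita was at -0.06 (95% interval -0.42 to 0.31), an estimate near 0 whose sign changed without osteoarthritic replicates 2 and 3 (to 0.10).

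HA, cells and drug against the osteoarthritic group gave estimates below 0 for all 8 members (47.8% of all genes were above 0), with a median of -0.23 over the members and -0.011 over all genes. Without osteoarthritic replicates 2 and 3 only 4 of 8 were below 0: RT1-Db1 was at 0.64, RT1-Ba at 0.25, RT1-DMa at 0.057 and RT1-DMb at 0.032, with RT1-Da at -0.076, RT1-Bb at -0.023 and Ciita at -0.51. Total counts as the scale turned the estimates of RT1-Ba, RT1-DMa and RT1-DMb above 0, and FPKM with limma those of RT1-Db1, RT1-Ba, RT1-DMa and RT1-DMb. With edgeR 0 of 8 members and 0% of all genes passed, 1 of 8 had an unadjusted p under 0.05 (6.34% of all genes), and 0 of 8 had groups without overlap (1.9%). DESeq2 called 0 of 8 members and 8 genes in all. Erythroid markers had estimates below 0 for 10 of 12 (median -0.48) and T cell markers for 6 of 8 (median -0.28). Neutrophil markers had them below 0 for 4 of 7 (median -0.37). B cell markers went the other way, above 0 for 11 of 13 (median 0.34), and macrophage markers were above 0 for 8 of 12 (median 0.094). None of these lists held a call. Of the 13 B cell markers 4 had an unadjusted p under 0.05 by edgeR (6.34% of all genes). The part of these cells in the members' estimates was not tested.

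Cd74 was the member with the small p. It had 426, 492, 385 and 414 CPM in HA replicates 1 to 4, against 457, 607, 707 and 537 in the osteoarthritic ones, and the groups overlapped because osteoarthritic replicate 1 was low. Its log2 fold change was -0.43 ± 0.15 (SE), 95% interval -0.75 to -0.10, with an unadjusted p of 0.0126 and an adjusted p of 0.745 by edgeR, and -0.21 without osteoarthritic replicates 2 and 3. Ciita was at -0.35 (95% interval -0.72 to 0.01) and RT1-Da at -0.34 (95% interval -0.73 to 0.05). The DM genes were close to 0, with -0.12 for RT1-DMa (95% interval -0.42 to 0.18) and -0.09 for RT1-DMb (95% interval -0.36 to 0.19). RT1-Ba, RT1-Bb and RT1-Db1 lay between -0.24 and -0.09 with standard errors of 0.32 to 0.41.

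Coacervate, cells and drug against the osteoarthritic group gave estimates below 0 for 7 of 8 members, with a median of -0.30 against -0.010 over all genes, of which 48.8% were above 0. By edgeR 0 of 8 members passed, and 0.146% of all genes did. An unadjusted p under 0.05 was found for 2 of 8 (21.8% of all genes), and 1 of 8 had groups without overlap (5.6%). Neutrophil markers had estimates below 0 for 6 of 7 (median -1.17), T cell markers for 7 of 8 (median -0.70) and chondrocyte markers for 8 of 10 (median -0.37). Macrophage markers had them below 0 for 9 of 12 (median -0.083). B cell markers went the other way, above 0 for 12 of 13 (median 0.42), and skeletal muscle markers were above 0 for 6 of 6 (median 0.96). None of these lists held a call. Of the 13 B cell markers 5 had an unadjusted p under 0.05 by edgeR (21.8% of all genes). Summed muscle markers were 5403, 8830, 18795 and 5329 CPM in coacervate replicates 1 to 4, against 3453 to 5522 in the osteoarthritic group. Neutrophil sums were 4832 to 6957 against 6149 to 22310, and T cell sums, which overlapped, 130 to 154 against 129 to 176. Cd4 alone had 93.5 to 110 CPM against 70.2 to 130, so the T cell sums rest largely on that gene. The part of these cells in the members' estimates was not tested. This comparison and the 2 above share the osteoarthritic libraries, so their values are not independent of each other.

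Both small p-values belonged to DM. RT1-DMa had 19.5, 25.1, 22.8 and 18.7 CPM in osteoarthritic replicates 1 to 4 and 13.6, 17.4, 14.7 and 16.6 in coacervate ones, with every coacervate library below every osteoarthritic one. Its log2 fold change was -0.47 ± 0.14 (SE), 95% interval -0.77 to -0.17, with an unadjusted p of 0.00475 and an adjusted p of 0.124 by edgeR. RT1-DMb was at -0.43 ± 0.13 (SE), adjusted p = 0.124, and its groups met only at coacervate replicate 2 (40.6 CPM) and osteoarthritic replicate 1 (40.4 CPM). DESeq2 called both (adjusted p = 0.0389 for RT1-DMa and 0.0430 for RT1-DMb). So did edgeR without osteoarthritic replicate 1 (0.0400 and 0.0292), and without osteoarthritic replicate 4 it called RT1-DMa (0.0402). Of the 14337 genes these settings called 764, 2054 and 1368, in that order, against 21 in the main fit. Over the 28 alternatives the adjusted p ranged from 0.0389 to 0.472 for RT1-DMa and from 0.0292 to 0.453 for RT1-DMb.

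The remaining members were further from a call. Cd74 was at -0.25 (95% interval -0.57 to 0.07), RT1-Da at -0.27 (95% interval -0.65 to 0.12), RT1-Bb at -0.32 (95% interval -0.99 to 0.35), RT1-Ba at -0.27 (95% interval -1.15 to 0.61) and RT1-Db1 at -0.41 (95% interval -1.29 to 0.46), all log2. Ciita was at 0.10 (95% interval -0.26 to 0.47). Without osteoarthritic replicates 2 and 3, RT1-Da, RT1-Db1, RT1-Ba and Ciita changed sign, to 0.0013, 0.47, 0.077 and -0.055, while RT1-DMa, RT1-DMb, RT1-Bb and Cd74 were at -0.29, -0.31, -0.12 and -0.03.

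Between themselves the 2 treatments differ in the carrier, with cells and a drug in both labels. By edgeR 0 of 8 members and 0% of all genes passed, 3 of 8 had estimates above 0 (49.7% of all genes), 3 of 8 had an unadjusted p under 0.05 (10.4% of all genes) and 0 of 8 had groups without overlap (9.71%). DESeq2 called 0 of 8 members and 322 genes in all. Ciita had 13.6, 22.5, 20.5 and 20.4 CPM in coacervate replicates 1 to 4 and 18.2, 11.7, 13.6 and 12.5 in HA ones. HA replicates 1 and 3 lay within the coacervate range, and coacervate replicate 1 lay within the HA range. Its log2 fold change (coacervate minus HA) was 0.46 ± 0.17 (SE), 95% interval 0.09 to 0.83, adjusted p = 0.338 by edgeR. RT1-DMa was at -0.35 ± 0.14 (SE) and RT1-DMb at -0.34 ± 0.13 (SE), with adjusted p-values of 0.38 and 0.342, so these estimates and that of Ciita had opposite signs. The median over the members was -0.14, against -0.0015 over all genes. Skeletal muscle markers were above 0 for 6 of 6 (median 1.24) and neutrophil markers below 0 for 7 of 7 (median -0.69), with 0 called. The other 5 members were between -0.18 (RT1-Ba) and 0.18 (Cd74).

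Each treated group was also set against healthy cartilage, and both of these comparisons share the healthy libraries with the first. After HA, 0 of 8 members passed by edgeR (0.16% of all genes), 5 of 8 had estimates above 0 (50.4%), 2 of 8 had an unadjusted p under 0.05 (8.25%), and 1 of 8 had groups without overlap (9.83%). The median over the members was 0.24, against 0.0021 over all genes. The 1 without overlap was RT1-DMb, with 44.9, 53.9, 40.4 and 40.9 CPM in HA replicates 1 to 4, each above the 4 healthy values given before. Its log2 fold change was 0.37 ± 0.13 (SE), adjusted p = 0.413 by edgeR. Ciita was at -0.41 ± 0.17 (SE), adjusted p = 0.538, with HA replicate 1 inside the healthy range. Neutrophil markers were above 0 for 7 of 7 (median 0.33), fibroblast markers for 8 of 8 (median 0.55, with 1 called) and skeletal muscle markers below 0 for 6 of 6 (median -0.76). The other 6 members were between -0.10 (Cd74) and 0.39 (RT1-Ba).

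After the coacervate, edgeR called 0 of 8 members and 0% of all genes, DESeq2 called 0 of 8 members and 18 genes in all, and 0 of 8 members had an unadjusted p under 0.05 (3.85% of all genes). Estimates were above 0 for 6 of 8 (51.1%), with a median of 0.058 against 0.0045 over all genes, and 0 of 8 had groups without overlap (3.66%). Fibroblast markers were above 0 for 8 of 8 (median 0.47) and B cell markers below 0 for 13 of 13 (median -0.15), with 0 called. The members' log2 estimates ran from -0.11 (RT1-DMa, 95% interval -0.41 to 0.19) to 0.26 (RT1-Bb, 95% interval -0.41 to 0.93), with Cd74 at 0.08 (95% interval -0.24 to 0.40) and Ciita at 0.05 (95% interval -0.32 to 0.42). For Cd74, Ciita, RT1-DMa and RT1-DMb the intervals leave room for changes of up to about 0.4 log2 in one direction or the other, and for RT1-Ba up to 1.09.

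**Figure D5:**
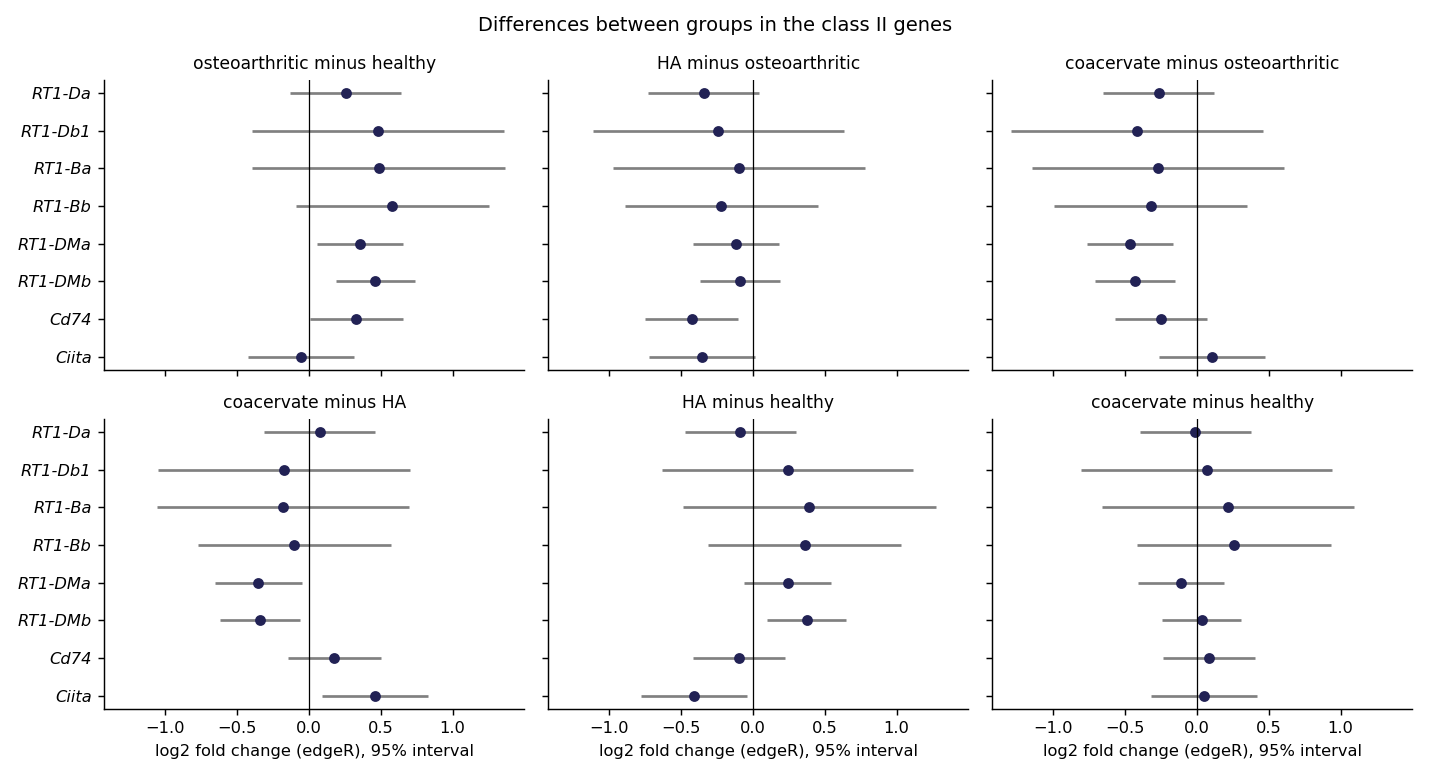
Log2 fold change of each class II gene from edgeR in the 6 comparisons, with its 95% interval as a line and 0 marked. Intervals of RT1-Ba, RT1-Bb and RT1-Db1 are the widest and cross 0 in every panel. Those of RT1-DMb lie off 0 in 4 panels, above it against healthy cartilage for the osteoarthritic and HA groups, but no member passed the adjusted threshold.

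Companion genes of the pathway were read from fixed lists. The list of peptide processing and turnover held endosomal proteases such as the cathepsins and Lgmn, the thiol reductase Ifi30, the ubiquitin ligases Marchf1 and Marchf8, and the surface molecule Cd83. Its 13 symbols stand for 11 genes, since both ligases were also listed under an older name, and all 11 were tested. In osteoarthritic against healthy cartilage 9 of the 11 had estimates above 0 (52.1% of all genes), with a median of 0.50 (0.015 over all genes). An unadjusted p under 0.05 by edgeR was found for 9 of 11 (17.8% of all genes), and 6 of 11 had groups without overlap (6.33%). The part of the shifts in neutrophil and fibroblast markers given above was not tested. After adjustment 1 of 11 passed, against 0.502% of all genes, and it rose. This was Ctsl, the protease cathepsin L, from 126 ± 8.61 to 241 ± 24.6 CPM (SD, n = 4; log2 fold change 0.93 ± 0.13 (SE), adjusted p = 0.0115 by edgeR), a call kept in all 28 alternatives. Ifi30, the endosomal thiol reductase, was at 0.50 ± 0.11 (SE), adjusted p = 0.0565.

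Against the osteoarthritic group the coacervate libraries had estimates below 0 for 9 of the 11, with a median of -0.55. Over all genes the median was -0.010, with 48.8% above 0. An unadjusted p under 0.05 by edgeR was found for 8 of 11 (21.8% of all genes), and 6 of 11 had groups without overlap (5.6%). After adjustment 1 of 11 passed, against 0.146% of all genes. The part of the shifts in neutrophil, T cell, B cell and muscle markers given above was not tested. Ctsl fell, to 141 ± 14.7 CPM, by edgeR with an adjusted p of 0.0497 that lies just inside the threshold (log2 fold change -0.77 ± 0.13 (SE)). The call was lost in 21 of 28 alternatives, among them the omission of any 1 healthy library, of osteoarthritic replicates 2 or 3, of HA replicates 1, 3 or 4 and of any 1 coacervate library, and that of osteoarthritic replicates 2 and 3 together (adjusted p = 0.121), with an adjusted p of up to 0.281. Ifi30 was at -0.56 ± 0.11 (SE), adjusted p = 0.0635. In HA against healthy cartilage Ctsl rose (log2 fold change 0.89 ± 0.13 (SE), adjusted p = 0.0258 by edgeR), a call lost in 7 of 28 alternatives, namely the replicate block and the omission of any 1 healthy library or of HA replicates 2 or 3, where it reached 0.144. The other 3 comparisons held no call in this list.

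In the list of class II transcription factors and interferon-gamma signalling, 15 of 16 genes were tested and none was called in any of the 6 comparisons. Ifng itself did not pass the filter: it was at 0 in 13 of 16 libraries. The smallest p-values were those of Irf1 and Spi1. Irf1, an interferon-induced factor that acts on the Ciita gene, was at -0.46 ± 0.10 (SE) in coacervate against HA libraries, adjusted p = 0.138 by edgeR. Spi1 encodes PU.1, a factor of myeloid and B cells, and was at -0.62 ± 0.14 (SE) in coacervate against osteoarthritic libraries, adjusted p = 0.0905.

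Of the other class II chains RT1-DOa, RT1-DOb (the DO molecule, a brake on DM) and RT1-Db2 were tested, and none was called in any comparison. RT1-Ha did not pass the filter. RT1-Db2 was at 0.94 ± 0.60 (SE) in coacervate against osteoarthritic libraries (adjusted p = 0.349), and RT1-DOa at -0.64 ± 0.38 (SE) in HA against healthy ones (adjusted p = 0.75, both by edgeR). None of 6 co-stimulatory ligands was called. Tnfsf9 was at -0.73 ± 0.26 (SE) in coacervate against HA libraries, adjusted p = 0.287, and Cd86 at -0.28 ± 0.21 (SE) in HA against osteoarthritic ones, adjusted p = 0.784. Neither was any of 12 class I genes called. RT1-A1, a class I heavy chain, was at 0.88 ± 0.27 (SE) in osteoarthritic against healthy cartilage, adjusted p = 0.168, and Psmb10, an immunoproteasome subunit, at -0.56 ± 0.22 (SE) in coacervate against osteoarthritic, adjusted p = 0.178.

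Markers of the cells that carry class II were summed per library for each group. The B cell list also holds precursor genes, of which Rag1 alone had 43.8 to 132 CPM in healthy libraries. B cell markers summed to 387 to 736 CPM in healthy, 285 to 497 in osteoarthritic, 470 to 618 in HA and 468 to 637 in coacervate libraries. In osteoarthritic against healthy cartilage 12 of 13 had estimates below 0, where 52.1% of all genes were above 0. An unadjusted p under 0.05 by edgeR was found for 8 of 13 (17.8% of all genes), and none was called (smallest adjusted p = 0.0736). Macrophage markers summed to 1002 to 1427, 1043 to 1232, 1050 to 1295 and 1072 to 1126 CPM, and dendritic cell markers to 211 to 224, 154 to 230, 193 to 221 and 195 to 212, in the same order. Of the 12 macrophage markers 6 had estimates above 0 and 6 below in osteoarthritic against healthy cartilage, with a median of 0.042. Only Trem2 was called. Cd14 was at 1.04 (adjusted p = 0.0906), Cx3cr1 at 1.06 (adjusted p = 0.0861) and Cd163 at -0.55 (adjusted p = 0.217). Trem2 rose in osteoarthritic against healthy cartilage (log2 fold change 2.33 ± 0.32 (SE), adjusted p = 0.0115 by edgeR) and in HA against healthy (adjusted p = 0.0158). The second of these calls was lost with the replicate block and without healthy replicates 2 or 4 or HA replicate 3, with an adjusted p of up to 0.125. The fibroblast marker called was Dpt, an extracellular matrix protein, which rose in osteoarthritic against healthy cartilage (log2 fold change 1.26 ± 0.26 (SE), adjusted p = 0.0466 by edgeR) and in HA against healthy (adjusted p = 0.0453). These calls were lost in 18 and 15 of 28 alternatives, in both comparisons by omitting any 1 healthy library, osteoarthritic replicate 3, HA replicates 1, 2 or 3 or coacervate replicates 1 or 2, and in the first also osteoarthritic replicate 4 or HA replicate 4, with adjusted p-values of up to 0.151 and 0.181. No marker of the lists described here was at 0 in all libraries, and the part of cell make-up in the members' values was not tested.

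Genes outside the set were ranked by how closely their log2 CPM followed the mean of the 8 members, each centred, over the 16 libraries. The closest was RT1-A1 (Pearson r = 0.85), the class I gene named above, on chromosome 20 from 5351621 to 5418019 (rn6). Hsbp1, Mal, Apcdd1, Rpl7a, Ascc1, Rnase4, Zfp623, Ikbip and Them4 followed with r from 0.80 to 0.76. The mean profile is led by the most variable members: RT1-Db1, RT1-Ba and RT1-Bb had r of 0.88, 0.88 and 0.82 with it, Cd74 0.64, RT1-DMb 0.61, RT1-Da 0.51 and RT1-DMa 0.47. Ciita had an r of 0.0028 with it. The genes closest to Ciita were Ptpru (0.81), Tmem201 (0.80), 7SK (0.80), Ccnd2 (0.79) and Ppp2r5d (0.78). These coefficients rank 14337 genes over 16 libraries and are given as a description.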

How the data were processed

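The deposited table gives 23552 genes with 2 columns per library for 16 libraries, 1 headed as count and 1 as FPKM, per the file headers. The counts are whole numbers that the authors left unnormalised. FPKM is the authors' own scaling of fragments to gene length and library size. Per the labels' protocols, messenger RNA was selected with oligo(dT) and the second strand was marked and removed. Tools named in the submitters' processing notes, with no role given, are HISAT2 2.2.1, cutadapt 1.9, StringTie 2.1.6, edgeR and DESeq2, with build rn6. The counting tool, annotation version and strand setting are not given in the sources used here, so genes with near copies or overlaps are uncertain.

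Counts were tested with edgeR 4.0.16 (R 4.3.3) by its quasi-likelihood test, with TMM scaling, 4 group means in 1 fit and Benjamini-Hochberg adjustment at 0.05. The 14337 genes tested had 1 FPKM or more in 4 or more libraries. CPM values are TMM-normalised counts, and log2 levels used a prior count of 2. Alternatives were other scalings, filters, DESeq2 1.42.0, limma 3.58.1 on log2(FPKM + 1) and log2(FPKM + 0.1), the 2 groups alone, a replicate block, and fewer libraries. The procedure was tested on simulated data. Totals were 36988722 to 50725189 counts per library, of amplified fragments without molecular identifiers.

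The members and the companion lists were chosen with earlier results of these data known. All 8 members are named. Of each companion list the genes called are named for that comparison, otherwise the 2 with the smallest unadjusted p over the 6 comparisons, and further genes only as levels. The 10 genes most like the mean of the members and the 5 most like Ciita are named, without symbols that stand for unnamed genes. Ifi30 and the cell type markers Trem2, Dpt, Cd14, Cx3cr1 and Cd163 fell outside this rule and were chosen after their values were seen. Promoters are from RefSeq (GRCr8).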

Additional observations from a re-analysis of the deposited data

Results flagged for a closer look

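Ciita in healthy cartilage had a library far from the other 3. Replicate 4, at 2.45 FPKM (15.8 CPM), lay below 3.05, 3.25 and 3.25 FPKM in replicates 1 to 3, and in log2 CPM its gap to the nearest of them made up 0.944 of the range of the group, above Dixon's 95% limit for 4 samples. It was the only 1 of 32 groups (8 genes in 4 groups) past that limit, and chance alone passes about 1 group in 20. The same library was the lowest of all 16 in RT1-Ba. Without it the log2 fold change of Ciita in coacervate against healthy cartilage was -0.0209 in place of 0.0485, and neither value passed edgeR's test.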

How the results depend on the processing

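Across 28 alternatives the 48 log2 fold changes of the members (8 genes in 6 comparisons) gave 1344 values, of which 47 changed sign and 7 passed the threshold where the main value had not. In 4 of the comparisons 0 of 8 members passed under all 28. Members did pass in osteoarthritic against healthy (1 with DESeq2; 0 to 1 when a library was left out) and coacervate against osteoarthritic (2 with DESeq2; 0 to 2 when a library was left out). Over all genes tested, calls ranged from 8 to 1122, against 72, in osteoarthritic against healthy and from 0 to 2054, against 21, in coacervate against osteoarthritic. They ranged from 0 to 8, against 0, in HA against osteoarthritic, from 0 to 322, against 0, in coacervate against HA, from 0 to 390, against 23, in HA against healthy and from 0 to 18, against 0, in coacervate against healthy. The 2 highest, 1122 and 2054, came without osteoarthritic replicate 1. The cause was not tested.

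The sign changed in these members. In osteoarthritic against healthy, without osteoarthritic replicates 2 and 3 together, RT1-Da was at -0.0147, RT1-Db1 at -0.403 and Ciita at 0.101. In HA against osteoarthritic the same omission gave 0.642 for RT1-Db1, 0.253 for RT1-Ba, 0.0574 for RT1-DMa and 0.0320 for RT1-DMb. There limma on log2(FPKM + 1) gave 0.0948, 0.102, 0.0300 and 0.0582 for the same 4 genes and on log2(FPKM + 0.1) 0.106, 0.104, 0.0319 and 0.0604, and total counts gave 0.0489, 0.0195 and 0.0442 for the last 3. These scales also moved the median of all genes in that comparison, from -0.011 to 0.104 with total counts and to 0.120 and 0.148 with limma, and in osteoarthritic against healthy to -0.108 and -0.130 with limma. In coacervate against osteoarthritic the omission gave 0.00135 for RT1-Da, 0.470 for RT1-Db1, 0.0773 for RT1-Ba and -0.0549 for Ciita.

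Leaving out 1 library changed the sign of 15 of the 48. For osteoarthritic against healthy, Ciita ranged from -0.148 to 0.0329. For HA against osteoarthritic, RT1-Db1 ranged from -0.541 to 0.0372, RT1-Ba from -0.321 to 0.149 and RT1-DMb from -0.186 to 0.0163. For coacervate against HA, RT1-Da ranged from -0.0404 to 0.238, RT1-Db1 from -0.365 to 0.0716, RT1-Ba from -0.331 to 0.00746 and RT1-Bb from -0.295 to 0.0244. For HA against healthy, RT1-Da ranged from -0.249 to 0.0291. For coacervate against healthy, RT1-Da ranged from -0.0857 to 0.0846, RT1-Db1 from -0.123 to 0.373, RT1-Ba from -0.0307 to 0.568, RT1-DMb from -0.0363 to 0.0972, Cd74 from -0.0432 to 0.172 and Ciita from -0.0348 to 0.181.

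Over all genes tested, libraries with the same replicate number were not more alike. Deviations of the 24 same-numbered pairs had a mean r of -0.046, with 4 of them over 0.1. The 72 pairs of different number had a mean r of 0.015, with 20 over 0.1, and 1 of 16 libraries was closest to its own number. Such coefficients cannot show whether libraries of 1 number shared an animal or a batch. With the replicate block 0 of 8 members passed in each comparison (RT1-DMb in osteoarthritic against healthy at 0.453, adjusted p = 0.0896), and 26 genes passed there against 72, 0 against 21 in coacervate against osteoarthritic and 0 against 23 in HA against healthy. Depth limits none of the members, the least counted having 526 counts. The precision is set by 4 libraries a group, so a p above the threshold does not show that a member was unchanged. Ctsl, Trem2 and Dpt were run through the alternatives after their values had been seen.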
